A study of Mus musculus with 52 samples.

Results

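Primitive streak and mesoderm regulators are the transcription factors that pattern the embryo at gastrulation, and the promoters of 10 of them (T, Eomes, Tbx6, Mixl1, Gsc, Evx1, Cdx1, Lhx1, Mesp1 and Msgn1) are described here in mouse embryonic stem cells (mESCs). They were chosen by gene symbol and not by their measured values, though earlier results of these data were known. Each gene had 1 promoter among the 20633 measured, so the group is 10 of 20633 promoters. The assay was ATAC-seq with a calibration (cATAC-seq) for chromatin accessibility, in which Tn5 transposase inserts sequencing adaptors into open DNA and Drosophila SG4 cells added to each sample set the scale. Values are calibrated reads, the mouse reads in a 400 bp promoter interval divided by a size factor from the Drosophila reads.

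The cells were 4 conditional lines, each carrying a CRE recombinase (CreERT2) that 4-hydroxytamoxifen activates. Kdm2a/b-JmjC cells are fl/fl for the JmjC domain exons of Kdm2a and Kdm2b and lose the long forms of both proteins, while short forms that retain the ZF-CxxC domain remain. Tamoxifen removes the ZF-CxxC domain from both proteins in Kdm2a/b-CXXC cells, from KDM2A in Kdm2a-CXXC cells and from KDM2B in Kdm2b-CXXC cells, all fl/fl at the genes named. Untreated libraries (3 in each line, and 4 in Kdm2a/b-CXXC) were compared with an equal number after 800 nM 4-hydroxytamoxifen for 96 h, making 26 ATAC libraries. Untreated cells of every line already carry the floxed alleles and CreERT2, and no library came from cells with CreERT2 alone, so effects of the drug or of CRE activity and effects of the deletion cannot be told apart. The Kdm2a/b-JmjC line was derived from mice, Kdm2a-CXXC was made by CRISPR editing, and Kdm2a/b-CXXC was made by editing Kdm2b-CXXC cells, so those lines share their ancestry.

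At gastrulation, Nodal, Wnt and FGF signals induce T-box, homeodomain and basic helix-loop-helix (bHLH) factors in the primitive streak, which direct cells into mesoderm and endoderm. In mESCs these genes are largely inactive, and many developmental genes of this kind have CpG islands that are bound by Polycomb complexes. KDM2A and KDM2B recognise non-methylated CpGs through their ZF-CxxC domain, the domain deleted in the CXXC lines, so the CpGs of each promoter are the bases of interest.

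The 5 homeobox promoters were CpG-rich (over the interval, GC made up 50% or more of the bases and CpGs were present at 0.6 times the expected number or more) and the 5 T-box and bHLH promoters were not. Among all promoters with base composition, 54.6% of 20630 were CpG-rich. This class describes the letters of the interval alone. It is not the study's annotation of CpG islands, which was not used here, so a promoter outside the class may still have an island. Sequences of the 200 bases before the annotated start site are given for Lhx1 and Gsc, 2 of the 3 most accessible members, for the least accessible, Tbx6 and Msgn1, and for Evx1 and T, which lay on either side of the CpG-rich limit with 21 and 22 CpGs in the interval. They are from RefSeq (GRCm38.p6, the build also known as mm10), which matched 8 of the 10 members by symbol, and are written 5′ to 3′ on the strand of the gene with each CpG in capitals.
Lhx1: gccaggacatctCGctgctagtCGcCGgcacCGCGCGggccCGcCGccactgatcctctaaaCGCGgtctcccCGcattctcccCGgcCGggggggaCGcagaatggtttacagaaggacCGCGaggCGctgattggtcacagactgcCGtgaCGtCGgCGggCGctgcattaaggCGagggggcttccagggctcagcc
Gsc: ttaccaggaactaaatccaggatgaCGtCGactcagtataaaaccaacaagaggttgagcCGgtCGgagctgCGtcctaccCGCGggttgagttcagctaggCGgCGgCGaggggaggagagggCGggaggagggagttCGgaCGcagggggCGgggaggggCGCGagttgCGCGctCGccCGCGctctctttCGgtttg
Evx1: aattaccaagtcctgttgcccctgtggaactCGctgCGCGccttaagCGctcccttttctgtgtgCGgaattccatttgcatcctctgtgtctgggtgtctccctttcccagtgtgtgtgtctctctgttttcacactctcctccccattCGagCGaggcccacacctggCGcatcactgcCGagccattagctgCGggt
T: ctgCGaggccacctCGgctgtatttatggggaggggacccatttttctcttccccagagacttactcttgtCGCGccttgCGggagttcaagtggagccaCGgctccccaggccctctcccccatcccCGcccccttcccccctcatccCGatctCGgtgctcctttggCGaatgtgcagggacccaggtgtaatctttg
Tbx6: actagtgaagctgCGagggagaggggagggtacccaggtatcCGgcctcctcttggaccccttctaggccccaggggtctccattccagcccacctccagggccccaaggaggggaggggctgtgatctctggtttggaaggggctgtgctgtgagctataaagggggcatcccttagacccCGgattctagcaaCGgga
Msgn1: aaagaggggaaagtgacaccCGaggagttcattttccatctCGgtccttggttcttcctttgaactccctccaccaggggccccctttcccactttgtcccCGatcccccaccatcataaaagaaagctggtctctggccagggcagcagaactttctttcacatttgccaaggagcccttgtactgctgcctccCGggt

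These windows lie at chr11:84525535-84525734 (minus strand), chr12:104473237-104473436 (minus), chr6:52313298-52313497 (plus), chr17:8434223-8434422 (plus), chr7:126781283-126781482 (plus) and chr12:11208949-11209148 (minus). They held 23 CpGs for Lhx1 and 22 for Gsc, 10 each for Evx1 and T, and 4 each for Tbx6 and Msgn1. Over the whole interval, the homeobox promoters had 21 CpGs (Evx1), 41 (Lhx1), 45 (Gsc), 47 (Cdx1) and 48 (Mixl1), with ratios of observed to expected CpGs of 0.669 to 1.01. The others had 22 (T), 17 (Mesp1), 8 (Eomes), 8 (Tbx6) and 7 (Msgn1), with ratios of 0.208 to 0.567. The median over all promoters was 24 CpGs and a ratio of 0.672.

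Every interval was centred on the annotated start site of its transcript. Exon 1 filled the downstream 200 bases in 9 members, and 142 of them in Tbx6. Coding sequence took up 200 of these bases in Msgn1, whose annotated transcript begins at its start codon, between 79 and 178 in T, Tbx6, Mixl1, Gsc, Cdx1 and Mesp1, and 0 in Eomes, Evx1 and Lhx1. Exact matches to 6 short motifs were counted on both strands as a description of the letters. A TATA box (TATAAA) was in Tbx6 at position -43 from the start site, in Cdx1 at -51 and in Gsc at -164, and in 10.4% of all promoters. The letters CTTTGAT, a core of TCF/LEF sites through which Wnt signals act, were in Mixl1 (-62), Cdx1 (-129) and Mesp1 (-31), and in 3.36% of all promoters. A GC box (GGGCGG) was in T, Mixl1, Gsc and Cdx1 (56.3% of all promoters), a CCAAT box (CCAAT) in Eomes, Tbx6, Lhx1 and Mesp1 (40% of all promoters), the T-box core TCACACC in Mesp1 (4.32%) and the FOXH1 letters AATCCACA in none of the 10 (0.906%).

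Depth ranged from 1.49 to 3.03 M promoter reads per library (M, 1000000), and the median promoter had 58 to 108 reads. Member promoters had between 8 and 143 reads in a library, so counting error alone gave a coefficient of variation of 10.7% for Lhx1 and 25.3% for Msgn1 (medians over the 8 groups), against 14.2% and 28.2% observed. The spread of the calibration was widest in Kdm2b-CXXC, where the calibrated total per library ranged from 1.75 to 2.96 M without treatment and from 1.98 to 3.19 M after tamoxifen. The deleted exons lie inside the genes, so promoter reads do not check the deletion. Promoters of 8 mESC identity genes (9 promoters) had mean levels of 10.6 to 273 reads after scaling each library by TMM, a scaling on the library's own promoter reads, and 5 genes of other tissues had 5.60 (Alb), 7.20 (Ins2), 9.22 (Myh6), 19.1 (Col1a1) and 66.0 (Thy1).

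The members took low to intermediate levels of accessibility among all promoters (see the plot of levels by library). As means over the 26 libraries, on the TMM scale, Lhx1 had 92.6 ± 12.5 reads (SD, n = 26), Mixl1 80.1 ± 17.0, Gsc 76.3 ± 12.6, Evx1 50.3 ± 9.29 and Cdx1 49.6 ± 11.7. T followed with 48.5 ± 12.1, Eomes with 43.4 ± 9.38, Mesp1 with 33.4 ± 8.14, Tbx6 with 22.9 ± 6.49 and Msgn1 with 14.7 ± 4.78. All intervals have the same length, so these levels are per length. Lhx1, the highest, lay at the 55.5 percentile of all promoters and Msgn1, the lowest, at the 23.9. Mixl1 lay at the 51.2 and Gsc at the 49.8, and the members from Evx1 down lay at the 40.1 or lower. Msgn1 lay above Alb, Ins2 and Myh6 and below Col1a1 on this scale. Thy1, at 66.0 reads, lay above all members but Lhx1, Mixl1 and Gsc. The mESC identity promoters ran from 10.6 to 273 reads, with a median of 183. Their lowest value belonged to an Esrrb promoter, and the next lowest, the other Esrrb promoter, had 51.5 reads. Lhx1, Mixl1 and Gsc lay above this second value and the other members below it. With Thy1 and the lower Esrrb promoter among them, these markers do not place the members between closed and active promoters.

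**Figure D1:**
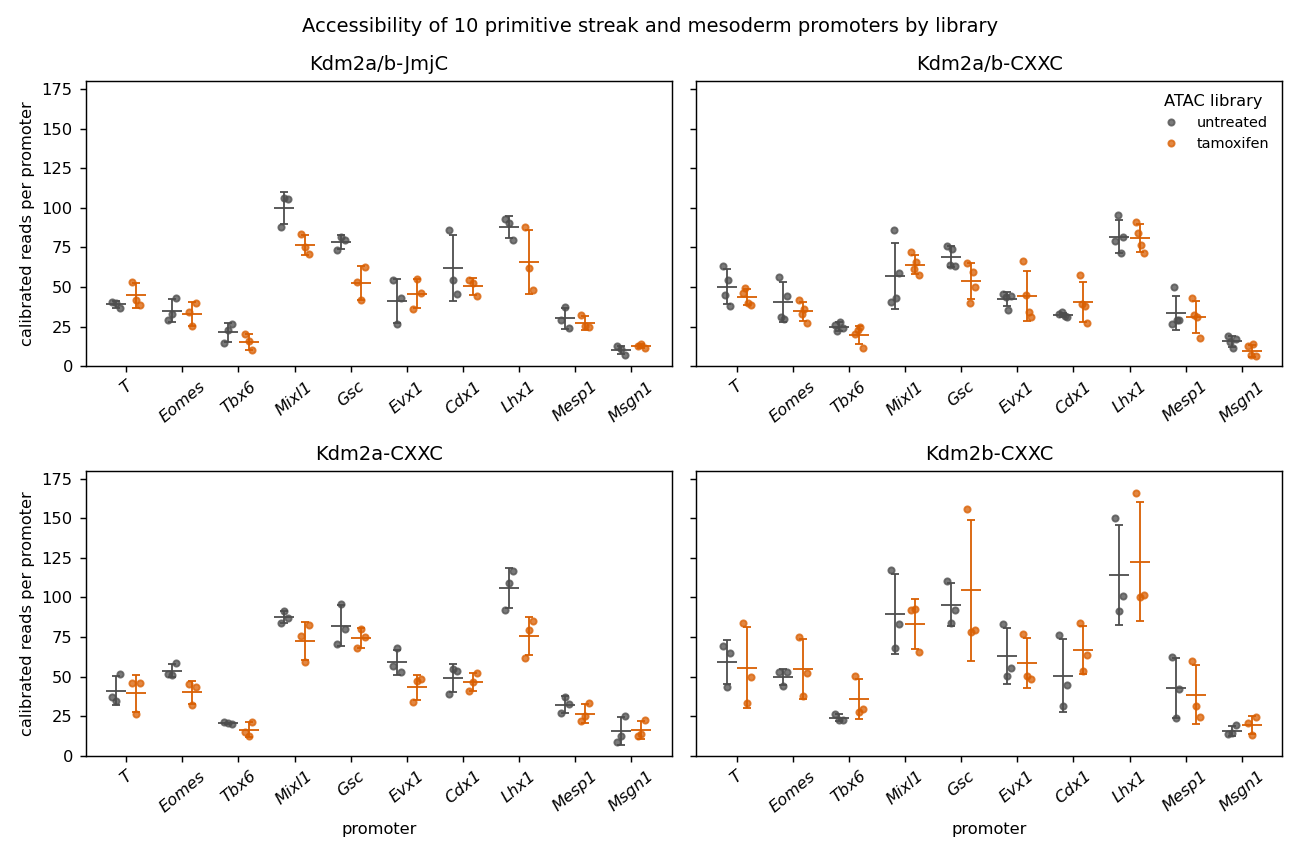
Calibrated reads per promoter (vertical axis) for the 10 members (horizontal axis) in each line. Points are libraries, grey for untreated and orange for tamoxifen, and bars are the mean and SD of 3 libraries, or of 4 in Kdm2a/b-CXXC. By mean, Lhx1, Mixl1 and Gsc are the highest of the 10 and Msgn1 the lowest in the untreated cells of every line, and the spread is widest in Kdm2b-CXXC.

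The order of the members was similar in the untreated cells of the 4 lines at both ends. Lhx1, Mixl1 and Gsc held the 3 highest places in each line, Tbx6 the next to last and Msgn1 the last. Most neighbours in this order did not differ beyond their spread. Ranges of neighbours were separate for Tbx6 against Msgn1 in all lines but Kdm2a-CXXC, for Cdx1 against Tbx6 in Kdm2a/b-CXXC, and for Lhx1 against Mixl1, Gsc against Evx1 and Mesp1 against Tbx6 in Kdm2a-CXXC, while all other neighbours overlapped. In particular Evx1, Cdx1, T, Eomes and Mesp1 changed places from line to line. Cdx1 had rank 4 in Kdm2a/b-JmjC and rank 8 in Kdm2a/b-CXXC.

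By mean level, the CpG-rich members stood above the others (see the plot of CpG number and accessibility). The homeobox, CpG-rich members had mean levels of 49.6 to 92.6 reads and the others 14.7 to 48.5, so the classes met between Cdx1 and T, which overlapped in range. Measured against their own class, the homeobox members and the others changed places. The 5 homeobox promoters stood low among the 11262 CpG-rich promoters, at the 7.14 (Cdx1), 7.40 (Evx1), 18.7 (Gsc), 20.5 (Mixl1) and 26.4 (Lhx1) percentiles, with 0.364 to 0.679 times the class median of 136 reads. The other 5 stood above the median of 13.5 reads of the 9368 promoters that are not CpG-rich, at the 52.4 (Msgn1), 63.1 (Tbx6), 71.3 (Mesp1), 76.5 (Eomes) and 78.6 (T) percentiles, with 1.09 to 3.58 times the median. T and Evx1, with 22 and 21 CpGs, had 48.5 and 50.3 reads. Among the homeobox members the level did not follow the number of CpGs. Cdx1 with 47 CpGs had 49.6 reads, and Lhx1 with 41 had 92.6. Gene family and base composition coincide in these 10 promoters, so they cannot be told apart. Across the 10 members Pearson's r between the number of CpGs and the log2 level was 0.81, and across all 20630 promoters it was 0.74. These points share their libraries and their depth.

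**Figure D2:**
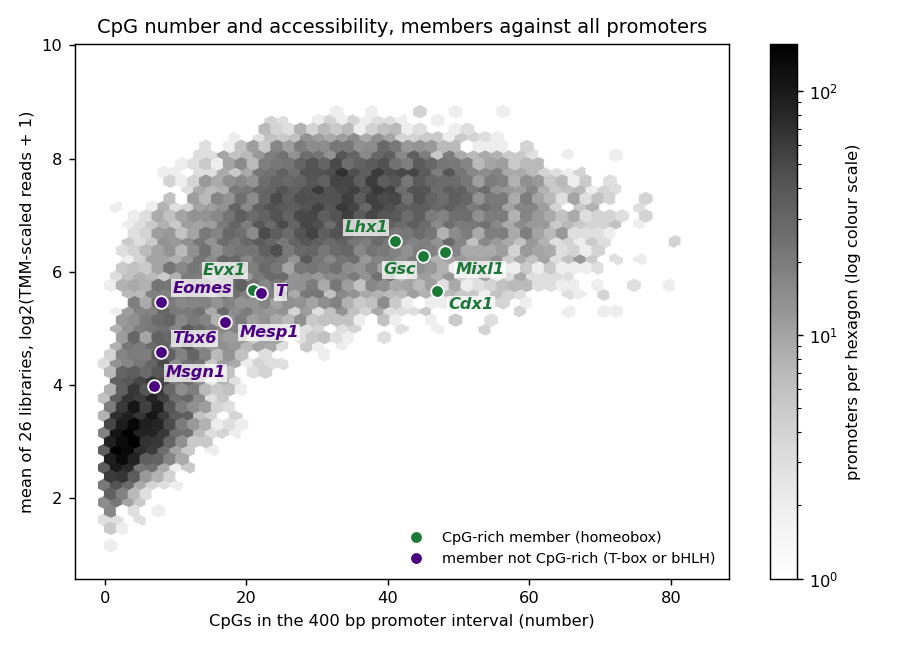
Number of CpGs in the 400 bp interval (horizontal axis) against the mean level over 26 libraries, log2(TMM-scaled reads + 1) (vertical axis), with all promoters as grey hexagons on a log colour scale and the 10 members as coloured points. The 5 homeobox members lie along the lower side of the CpG-rich promoters. The 5 T-box and bHLH members have lower levels and, apart from T, fewer CpGs than any homeobox member. T lies next to Evx1, at 22 and 21 CpGs.

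None of the 10 member promoters was called as changed by tamoxifen in any line (limma, Benjamini-Hochberg adjusted p under 0.05 over all promoters tested and a fold change over 1.4). All 10 passed the filter on low reads in every line. Of all tested promoters, 0.0757% were called in the JmjC line and 0% in Kdm2a/b-CXXC. Kdm2a-CXXC had 0% and Kdm2b-CXXC 0%. Among all promoters, an unadjusted limma p under 0.05 was found for 3537 of 17174 (20.6%) in the JmjC line, 764 of 16413 (4.65%) in Kdm2a/b-CXXC, 1488 of 17727 (8.39%) in the Kdm2a line and 120 of 17930 (0.669%) in the Kdm2b line. At an unadjusted p under 0.05, limma found 3 members in Kdm2a/b-JmjC (Gsc, Lhx1 and Mixl1), 1 in Kdm2a-CXXC (Lhx1) and 0 in the other lines. With the recovered reads, the edgeR quasi-likelihood test gave the same numbers of members, and DESeq2 gave 1 in Kdm2a/b-JmjC, 1 in Kdm2a-CXXC and 0 in the others. edgeR called 0 members in each line and DESeq2 0 in the 3 CXXC lines, and DESeq2 gave no adjusted p for the members in Kdm2a/b-JmjC. In these bulk samples, fewer cells with an open promoter and fewer insertions per cell cannot be told apart.

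The intervals show what the spread allowed. Of the 40 intervals of 95% (10 promoters in 4 lines), 31 lay within a fold change of 2 either way, 1 lay within 1.4, 32 reached a fall of 1.4 times or more and 17 a rise of that size. Median log2 fold changes of the members were -0.19 (Kdm2a/b-JmjC), -0.16 (Kdm2a/b-CXXC line), -0.28 (Kdm2a-CXXC) and 0.07 (Kdm2b-CXXC), beside -0.21, 0.09, -0.18 and 0.10 for all tested promoters. After TMM scaling, which removes a change shared by all promoters, they were 0.01, -0.24, -0.11 and -0.03, beside -0.01, 0.00, -0.01 and 0.00. The calibrated median of the members and that of all promoters had opposite signs in Kdm2a/b-CXXC, where 7 members were lower after tamoxifen on the calibrated scale and 8 on the TMM scale, beside 32.0% and 49.8% of all tested promoters. That median came to -0.02 without tamoxifen replicate 4 of this line.

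**Figure D3:**
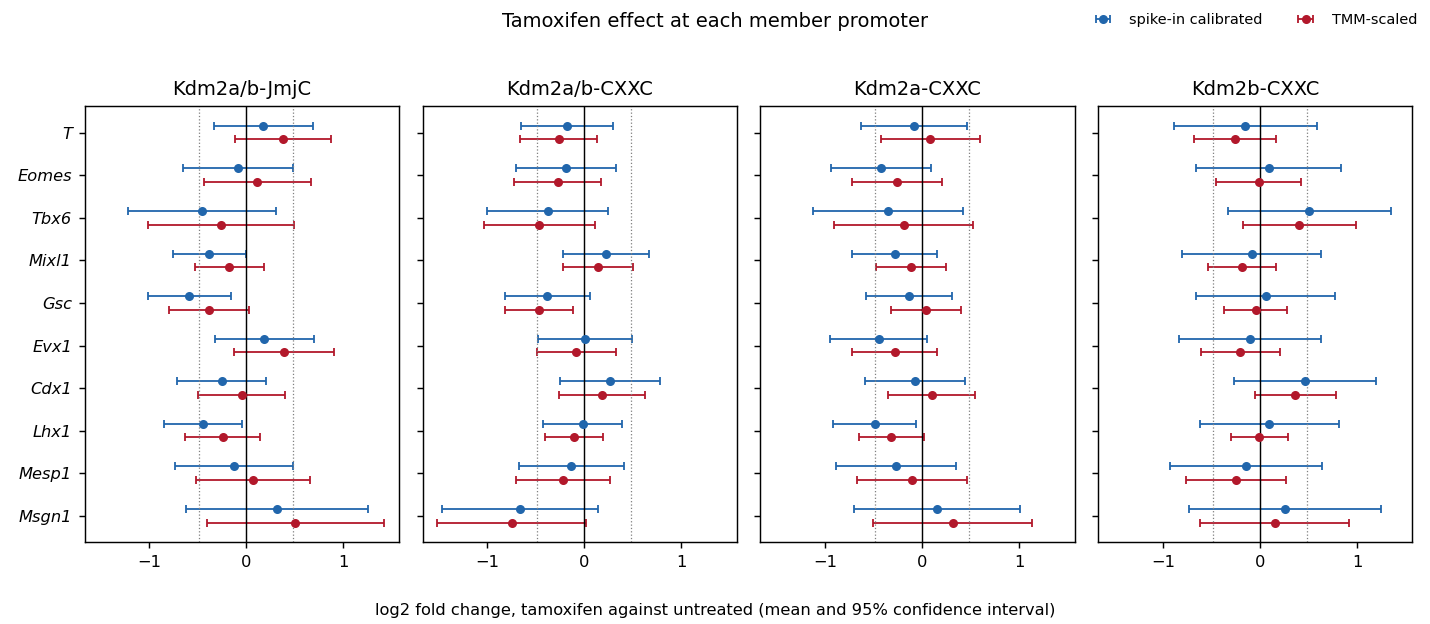
Log2 fold change of tamoxifen against untreated (horizontal axis) for each member (vertical axis) in each line, with 95% confidence intervals from limma, on the spike-in calibrated scale (blue) and after TMM scaling (red). Dotted lines mark a fold change of 1.4. In Kdm2a/b-JmjC the calibrated intervals of Mixl1, Gsc and Lhx1 and in Kdm2a-CXXC that of Lhx1 lie below 0, and no adjusted p passed the threshold. The calibrated intervals are widest in Kdm2b-CXXC, while the TMM-scaled ones are not. Msgn1 has the widest interval in every line on both scales.

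Groups that did not overlap on the calibrated scale were counted against all tested promoters. All tamoxifen libraries lay below all untreated ones for 2 members in Kdm2a/b-JmjC (Mixl1 and Gsc), against 23.2% of all tested promoters, and for 4 in Kdm2a-CXXC (Eomes, Mixl1, Evx1 and Lhx1), against 13.4%. In Kdm2a/b-CXXC there were 0 members against 0.597%, and in Kdm2b-CXXC 0 against 0.446%. All tamoxifen libraries lay above for 1 member in Kdm2b-CXXC (Tbx6, against 2.13%) and for 0 in the others (against 0.908% in the JmjC line, 1.8% in Kdm2a/b-CXXC and 1.12% in the Kdm2a line). On the TMM scale, Gsc in Kdm2a/b-JmjC, Lhx1 in Kdm2a-CXXC and Tbx6 in Kdm2b-CXXC stayed separate, and the other groups named here overlapped. Separate on that scale only were Gsc in Kdm2a/b-CXXC and Evx1 in Kdm2b-CXXC (lower), and T and Msgn1 in Kdm2a/b-JmjC (higher). The share of all promoters was not counted on the TMM scale.

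The T-box factors are described first. T (Brachyury; NM_009309, chr17:8434223-8434622), the founding T-box gene, is needed for posterior mesoderm and the notochord. T had 40.7, 39.9 and 36.7 calibrated reads without treatment and 53.4, 41.5 and 38.9 after tamoxifen in Kdm2a/b-JmjC, and 63.2, 44.8, 54.4 and 37.8 calibrated reads without treatment and 46.2, 49.2, 40.1 and 38.5 after tamoxifen in Kdm2a/b-CXXC. The other lines gave 37.3, 34.3 and 51.7 calibrated reads without treatment and 46.2, 26.1 and 45.7 after tamoxifen in Kdm2a-CXXC, and 69.2, 43.2 and 65.0 calibrated reads without treatment and 83.6, 33.5 and 49.8 after tamoxifen in Kdm2b-CXXC. Its groups overlapped in every line. Log2 fold changes were 0.17 (SE 0.26), -0.18 (SE 0.24), -0.08 (SE 0.28) and -0.15 (SE 0.38) with the JmjC line first, then Kdm2a/b-CXXC, then the Kdm2a and then the Kdm2b single line, the order used for every member below. The value in Kdm2a-CXXC turned to 0.08 after TMM scaling.

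Eomes (NM_001164789, chr9:118477989-118478388), which acts in mesoderm migration, definitive endoderm and trophoblast, had 29.4, 32.6 and 43.1 calibrated reads without treatment and 34.2, 25.1 and 39.9 after tamoxifen in Kdm2a/b-JmjC, and 56.3, 30.9, 30.0 and 44.5 calibrated reads without treatment and 41.7, 33.1, 36.2 and 27.3 after tamoxifen in Kdm2a/b-CXXC. It had 51.6, 51.0 and 58.8 calibrated reads without treatment and 45.3, 31.9 and 43.1 after tamoxifen in Kdm2a-CXXC, and 53.0, 43.9 and 52.7 calibrated reads without treatment and 75.2, 37.5 and 52.2 after tamoxifen in Kdm2b-CXXC. The treated libraries of Kdm2a-CXXC lay below all untreated ones, and the groups of the other lines overlapped. Log2 fold changes were -0.09 (SE 0.29), -0.19 (SE 0.26), -0.43 (SE 0.26) and 0.09 (SE 0.38), and the value in Kdm2a-CXXC had a limma adjusted p of 0.615. After TMM scaling the values of Kdm2a/b-JmjC and Kdm2b-CXXC changed sign, to 0.11 and -0.02.

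Tbx6 (NM_011538, chr7:126781283-126781682) directs cells to paraxial mesoderm. Tbx6 had 14.7, 22.7 and 26.6 calibrated reads without treatment and 20.3, 15.7 and 10.2 after tamoxifen in Kdm2a/b-JmjC, and 25.7, 21.9, 28.1 and 24.2 calibrated reads without treatment and 20.3, 22.9, 24.5 and 11.2 after tamoxifen in Kdm2a/b-CXXC. Its values were 21.0, 20.6 and 20.3 calibrated reads without treatment and 14.8, 12.6 and 21.6 after tamoxifen in Kdm2a-CXXC, and 26.5, 22.7 and 22.8 calibrated reads without treatment and 50.1, 27.6 and 29.4 after tamoxifen in Kdm2b-CXXC. In Kdm2b-CXXC each treated library lay above each untreated one, 35.7 ± 12.5 against 24.0 ± 2.18 (SD, n = 3), with treated replicate 1 farthest from the others. The log2 fold changes -0.45 (SE 0.39), -0.38 (SE 0.32), -0.35 (SE 0.39) and 0.51 (SE 0.43) were negative in 3 lines and positive in Kdm2b-CXXC on both scales. The interval in Kdm2b-CXXC ran from -0.33 to 1.35. The same library had the highest calibrated total, 3.19 M, and on the TMM scale the Kdm2b-CXXC value was 0.41.

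Among the homeobox factors, Mixl1 (NM_013729, chr1:180696835-180697234) is a paired-type homeodomain factor of the streak and endoderm. Mixl1 had 88.1, 106 and 105 calibrated reads without treatment and 83.3, 75.2 and 70.6 after tamoxifen in Kdm2a/b-JmjC, and 40.5, 85.7, 43.1 and 59.1 calibrated reads without treatment and 72.1, 61.1, 65.5 and 57.8 after tamoxifen in Kdm2a/b-CXXC. Mixl1 further had 84.1, 91.4 and 87.1 calibrated reads without treatment and 75.8, 59.0 and 82.5 after tamoxifen in Kdm2a-CXXC, and 118, 68.0 and 83.4 calibrated reads without treatment and 91.9, 92.7 and 65.3 after tamoxifen in Kdm2b-CXXC. Treated libraries lay below all untreated ones in the JmjC line and in Kdm2a-CXXC, and overlapped elsewhere. Log2 fold changes were -0.38 (SE 0.19), 0.22 (SE 0.22), -0.28 (SE 0.22) and -0.09 (SE 0.36), with limma adjusted p of 0.236 in Kdm2a/b-JmjC and 0.652 in Kdm2a-CXXC. On the TMM scale these 2 values were -0.18 and -0.11.

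Gsc (goosecoid; NM_010351, chr12:104473037-104473436), a homeodomain repressor of the anterior streak and organizer, came nearest to a call. Gsc had 73.4, 81.6 and 79.7 calibrated reads without treatment and 53.4, 41.5 and 62.4 after tamoxifen in Kdm2a/b-JmjC, and 76.1, 63.8, 74.0 and 62.9 calibrated reads without treatment and 65.3, 39.9, 59.7 and 49.8 after tamoxifen in Kdm2a/b-CXXC. Gsc also had 70.7, 95.9 and 80.0 calibrated reads without treatment and 68.0, 80.3 and 74.9 after tamoxifen in Kdm2a-CXXC, and 111, 83.6 and 92.2 calibrated reads without treatment and 156, 77.9 and 79.2 after tamoxifen in Kdm2b-CXXC. In Kdm2a/b-JmjC the mean was 78.2 ± 4.29 against 52.4 ± 10.5 (SD, n = 3 each) with no overlap, a log2 fold change of -0.59 (SE 0.22) with an unadjusted limma p of 0.00729 and an adjusted p of 0.125. The other lines gave -0.38 (SE 0.22), -0.13 (SE 0.23) and 0.06 (SE 0.36) with overlapping groups. TMM scaling reduced the Kdm2a/b-JmjC value to -0.38, gave -0.47 in Kdm2a/b-CXXC with an unadjusted p of 0.00912 and an adjusted p of 0.316, and turned the values of Kdm2a-CXXC and Kdm2b-CXXC to 0.03 and -0.04. With TMM scaling limma called 0 members in each line, beside 0%, 0.104%, 0% and 0.00558% of all promoters in the same order of lines.

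Evx1 (NM_007966, chr6:52313298-52313697) encodes an even-skipped homeodomain factor of the posterior streak. Evx1 had 54.2, 26.3 and 43.1 calibrated reads without treatment and 36.3, 54.8 and 46.0 after tamoxifen in Kdm2a/b-JmjC, and 45.4, 43.8, 35.6 and 44.5 calibrated reads without treatment and 66.4, 45.0, 34.2 and 31.3 after tamoxifen in Kdm2a/b-CXXC. For Kdm2a-CXXC and Kdm2b-CXXC the values were 56.4, 67.8 and 52.7 calibrated reads without treatment and 34.0, 47.4 and 48.2 after tamoxifen in Kdm2a-CXXC, and 83.0, 50.3 and 55.3 calibrated reads without treatment and 76.6, 50.3 and 48.2 after tamoxifen in Kdm2b-CXXC. The 3 treated libraries of Kdm2a-CXXC lay below the untreated ones, and the groups overlapped elsewhere. Log2 fold changes were 0.19 (SE 0.26), 0.01 (SE 0.25), -0.45 (SE 0.26) and -0.10 (SE 0.37), with an adjusted p of 0.601 (limma) in Kdm2a-CXXC. The value near 0 in Kdm2a/b-CXXC was -0.08 after TMM scaling.

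Cdx1 (NM_009880, chromosome 18, minus strand), a caudal-type homeodomain factor that regulates Hox genes along the body axis, had 85.8, 54.4 and 45.8 calibrated reads without treatment and 54.5, 52.5 and 44.0 after tamoxifen in Kdm2a/b-JmjC, and 32.6, 33.9, 31.9 and 31.0 calibrated reads without treatment and 57.4, 39.0, 38.1 and 27.3 after tamoxifen in Kdm2a/b-CXXC. Its level was 39.2, 54.8 and 53.7 calibrated reads without treatment and 41.0, 46.4 and 52.0 after tamoxifen in Kdm2a-CXXC, and 76.1, 31.2 and 44.8 calibrated reads without treatment and 83.6, 53.2 and 63.7 after tamoxifen in Kdm2b-CXXC. All groups overlapped. Untreated replicate 1 of Kdm2a/b-JmjC and of Kdm2b-CXXC stood above the other untreated libraries of those lines. Log2 fold changes were -0.25 (SE 0.23), 0.27 (SE 0.26), -0.07 (SE 0.26) and 0.46 (SE 0.37), and the value in Kdm2a-CXXC became 0.10 after TMM scaling.

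Lhx1 (NM_008498, chr11:84525335-84525734), a LIM-homeodomain factor needed for head formation, was the most accessible member. Lhx1 had 92.6, 90.7 and 79.7 calibrated reads without treatment and 87.6, 61.9 and 48.1 after tamoxifen in Kdm2a/b-JmjC, and 79.0, 95.7, 71.2 and 81.3 calibrated reads without treatment and 91.2, 84.0, 76.3 and 71.4 after tamoxifen in Kdm2a/b-CXXC. Lhx1 likewise had 91.7, 109 and 117 calibrated reads without treatment and 61.9, 79.3 and 85.0 after tamoxifen in Kdm2a-CXXC, and 149.8, 91.3 and 101 calibrated reads without treatment and 166, 101 and 101 after tamoxifen in Kdm2b-CXXC. In Kdm2a-CXXC the treated libraries lay below all untreated ones, 75.4 ± 12.1 against 106 ± 12.7 (SD, n = 3 each), and in Kdm2a/b-JmjC treated replicate 1 fell among the untreated values. Log2 fold changes were -0.45 (SE 0.20), -0.02 (SE 0.21), -0.49 (SE 0.22) and 0.10 (SE 0.36). By limma the unadjusted p was 0.0294 in Kdm2a/b-JmjC and 0.0254 in Kdm2a-CXXC, and the adjusted p 0.198 and 0.581. TMM scaling left -0.24 and -0.32 in these lines and turned the Kdm2b-CXXC value to -0.01. The interval shares 275 bp with that of Lhx1os, which is transcribed away from it on the plus strand, so both rows hold the same reads there.

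The bHLH factors had few reads. Mesp1 (NM_008588, chr7:79793391-79793790), which marks the earliest heart progenitors, had 29.4, 37.2 and 23.8 calibrated reads without treatment and 32.0, 25.1 and 24.6 after tamoxifen in Kdm2a/b-JmjC, and 26.7, 49.8, 29.1 and 29.0 calibrated reads without treatment and 42.8, 32.3, 31.3 and 17.7 after tamoxifen in Kdm2a/b-CXXC. Mesp1 had in addition 26.8, 37.3 and 32.4 calibrated reads without treatment and 21.8, 25.2 and 33.0 after tamoxifen in Kdm2a-CXXC, and 62.2, 24.1 and 42.1 calibrated reads without treatment and 59.9, 31.5 and 24.5 after tamoxifen in Kdm2b-CXXC. All groups overlapped, and untreated replicate 2 of Kdm2a/b-CXXC stood apart from the other 3. Its log2 fold changes were -0.13 (SE 0.31), -0.13 (SE 0.28), -0.27 (SE 0.32) and -0.15 (SE 0.40), negative in all 4 lines on the calibrated scale, but 0.07 in Kdm2a/b-JmjC after TMM scaling.

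Msgn1 (mesogenin; NM_019544, chr12:11208749-11209148), a bHLH factor of the presomitic mesoderm, had 12.4, 10.9 and 7.33 calibrated reads without treatment and 12.8, 14.1 and 11.3 after tamoxifen in Kdm2a/b-JmjC, and 18.8, 14.9, 11.2 and 17.4 calibrated reads without treatment and 12.4, 6.79, 13.7 and 6.42 after tamoxifen in Kdm2a/b-CXXC. Msgn1 values were 8.60, 12.2 and 25.3 calibrated reads without treatment and 12.2, 13.5 and 22.8 after tamoxifen in Kdm2a-CXXC, and 13.8, 14.2 and 19.3 calibrated reads without treatment and 20.9, 12.8 and 24.5 after tamoxifen in Kdm2b-CXXC. Every pair of groups overlapped. Log2 fold changes of 0.31 (SE 0.47), -0.66 (SE 0.41), 0.15 (SE 0.44) and 0.25 (SE 0.50) had the widest errors of the group, and in Kdm2a/b-CXXC the interval ran from -1.46 to 0.14. At these levels a fall of more than a factor of 2 was within the interval in Kdm2a/b-CXXC, and a rise of more than that factor in the other 3 lines.

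The difference between lines in the tamoxifen effect was tested for each member by a limma F-test on the 3 interaction terms over all 26 libraries. The adjusted p lay between 0.968 and 0.997 and the unadjusted p between 0.237 (Lhx1) and 0.989 (Mesp1), so 0 of 10 members were called, against 0% of all promoters tested. At an unadjusted p under 0.05 there were 0 members and 741 promoters. No other tool was run for this test. A member that was lower in one line and not in another, such as Gsc or Lhx1, was thus not shown to respond differently between lines.

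Levels were compared between lines on the TMM scale, since the 4 tables were calibrated separately, with treatment as a covariate. A total of 3 members differed between the lines (limma F-test, adjusted p under 0.05 and no limit on fold), namely Mixl1 (adjusted p = 0.00569), T (0.00845) and Cdx1 (0.0165). That is 3 of 10, beside 37.4% of all promoters tested. Tbx6 and Lhx1 had unadjusted p of 0.0278 and 0.0464 and adjusted p of 0.0689 and 0.103, and the adjusted p of the other 5 lay between 0.141 and 0.945. Each genotype was represented by 1 line, so genotype, clone and library preparation cannot be told apart.

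T was highest in Kdm2a/b-CXXC, with 58.0 ± 12.0 reads (SD, n = 8, range 44.1 to 82.6), and lowest in Kdm2a-CXXC, with 37.4 ± 9.50 (SD, n = 6, range 25.7 to 52.7), a ratio of 1.55. Kdm2a/b-JmjC and Kdm2b-CXXC lay between, at 48.2 ± 8.16 and 47.1 ± 8.72 (SD, n = 6 each), and neighbouring lines overlapped. Mixl1 was highest in Kdm2a/b-JmjC, with 100.3 ± 10.5 (SD, n = 6, range 88.1 to 116), against 74.7 ± 17.4 (n = 8), 74.2 ± 10.1 and 72.8 ± 13.1 (n = 6 each) in Kdm2a/b-CXXC and then the Kdm2a and Kdm2b lines. Cdx1 was also highest in Kdm2a/b-JmjC, with 64.1 ± 15.0 (range 50.2 to 91.8), against 44.2 ± 5.23, 44.2 ± 3.73 and 47.9 ± 8.41 in the same order.

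The median level of the promoters of a chromosome also differed between lines. Such a median does not tell a shift of the whole chromosome from a shift of a part of it. For Mixl1 on chromosome 1, the median of the 1018 promoters of that chromosome with a mean of more than 10 reads lay 0.31 (log2) from the mean of all libraries in the JmjC line, and -0.18, 0.10 and -0.17 from it in the other lines in the order above, beside 0.35, -0.10, -0.09 and -0.12 for Mixl1 itself. With each library centred on the median of each chromosome the Mixl1 adjusted p rose to 0.233, while T (0.00739) and Cdx1 (0.0110) kept theirs under 0.05, 2 of 10 against 30.6% of all promoters (limma). Shifts of chromosome 17 for T lay between -0.07 and 0.04, and those of chromosome 18 for Cdx1 between -0.03 and 0.02. The Cdx1 call rested on 1 library. Without untreated replicate 1 of Kdm2a/b-JmjC its adjusted p was 0.179. The T call was lost without tamoxifen replicate 2 of Kdm2a-CXXC, at 0.0517, and Tbx6 was called without 1 of 3 other libraries (tamoxifen replicate 1 or 4 of Kdm2a/b-CXXC or untreated replicate 1 of Kdm2b-CXXC), at 0.0495, 0.0335 and 0.0489.

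**Figure D4:**
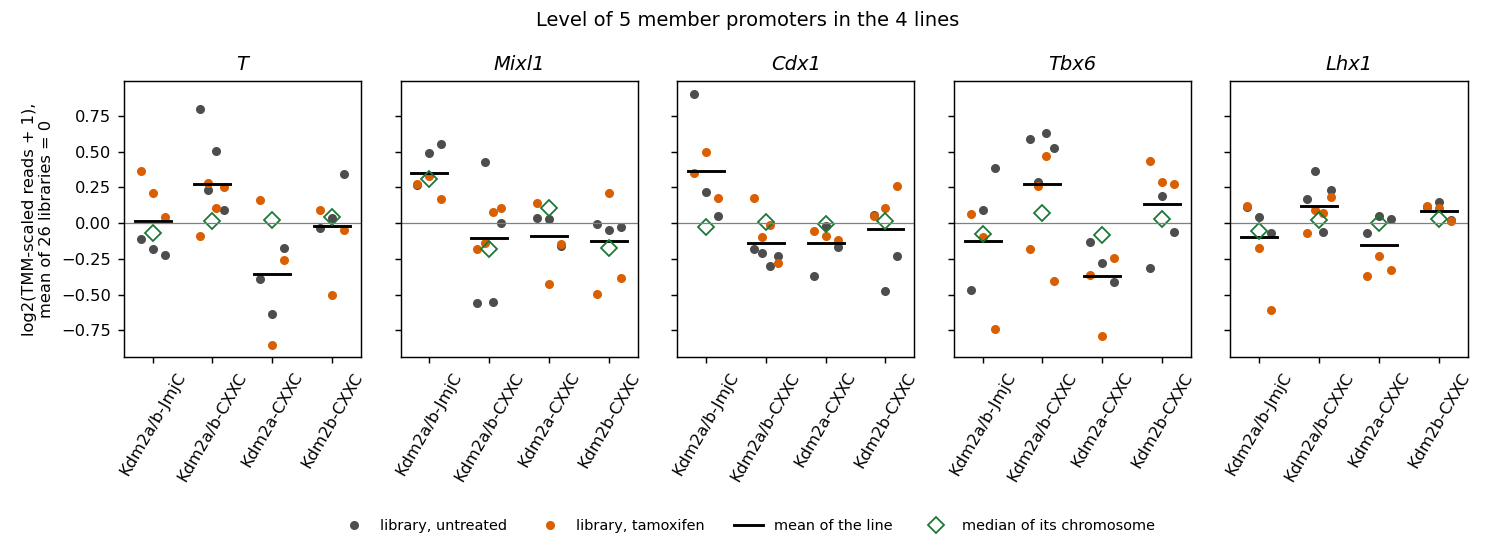
Level of 5 members in each line as log2(TMM-scaled reads + 1) with the mean of the 26 libraries set to 0 (vertical axis). Points are libraries, black bars the mean of a line, and open diamonds the median shift of all promoters on the same chromosome. For Mixl1 the diamond and the bar have the same sign in 3 lines, at 0.31 and 0.35 in Kdm2a/b-JmjC, and opposite signs in Kdm2a-CXXC (0.10 and -0.09), and for T and Cdx1 the diamonds stay between -0.07 and 0.04.

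Other promoters of the same pathways gave no calls in these comparisons either. Of 16 promoters of streak signals (Wnt, FGF, BMP and Nodal pathway genes), all tested, limma called 0 in each line, and 6, 1, 2 and 0 had an unadjusted p under 0.05 in the order of lines above, beside 20.6%, 4.65%, 8.39% and 0.669% of all tested promoters. Their median log2 fold changes were -0.12, 0.01, -0.21 and 0.15. The smallest p in each line belonged to Sp5, a Wnt-induced transcription factor, in Kdm2a/b-JmjC, to the Nodal antagonist Cer1 in Kdm2a/b-CXXC, to the streak ligand Fgf8 in Kdm2a-CXXC and to the Wnt antagonist Dkk1 in Kdm2b-CXXC. Sp5 went from 82.0 ± 7.14 to 47.3 ± 7.29 calibrated reads (SD, n = 3 each), a log2 fold change of -0.79 with an SE of 0.22 and an adjusted p of 0.0622 by limma. Cer1 had a log2 fold change of 1.09 (limma adjusted p = 0.996) at 7.01 and 15.7 reads, Fgf8 one of -0.64 (adjusted p = 0.581) and Dkk1 one of -0.38 (adjusted p = 0.99992). None of these differences passed the threshold. Nodal was not analysed here.

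Endoderm and axial midline genes (9 promoters, all tested) gave medians of -0.30, 0.01, -0.26 and 0.12, and 0, 1, 2 and 0 with an unadjusted p under 0.05. Gata6, an endoderm factor, came first in Kdm2a/b-JmjC at -0.39 (limma adjusted p = 0.255). Noto, a notochord homeodomain factor, came first in both Kdm2a/b-CXXC and Kdm2a-CXXC but with opposite signs, 0.71 in the former (limma adjusted p = 0.996) and -0.95 in the latter (0.581), and Foxa2 came first in Kdm2b-CXXC at 0.34 (0.99992). Later mesoderm genes (20 promoters, 19 tested in 3 lines and 20 in Kdm2b-CXXC) gave medians of -0.36, 0.15, -0.24 and 0.07, and 5, 1, 2 and 0 with an unadjusted p under 0.05, again beside 20.6% of all promoters in the JmjC line. Osr1, a factor of the intermediate mesoderm, came first in Kdm2a/b-JmjC at -0.94 (limma adjusted p = 0.115) and in Kdm2a-CXXC at -0.93 (0.581), Mesp2, the neighbour and relative of Mesp1, in Kdm2a/b-CXXC at 0.74 (0.996) and Pdgfra, a receptor of early mesoderm, in Kdm2b-CXXC at 0.36 (0.99992). Family relatives of the members (9 promoters, 8 tested in each line) gave medians of -0.35, 0.08, -0.14 and 0.12, and 1, 1, 0 and 0 with an unadjusted p under 0.05. Gsc2 came first in Kdm2a/b-JmjC at -0.50 (limma adjusted p = 0.188), and Mesp2 in the other 3 lines at 0.74, -0.69 and -0.47. Of these 3 lists limma called 0 promoters in any line, on either scale.

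Summed levels of marker promoters were compared between treatments. The summed TMM-scaled reads of the 5 promoters of other tissues ran from 111 to 146 without treatment and 102 to 113 after tamoxifen in the JmjC line, 99.0 to 126 and 75.1 to 129 in Kdm2a/b-CXXC, 78.4 to 99.3 and 98.4 to 116 in the Kdm2a line, and 84.1 to 104 and 102 to 115 in the Kdm2b line. The treated and untreated ranges overlapped in every line, with mean sums lower after tamoxifen in the JmjC line and in Kdm2a/b-CXXC and higher in the single CXXC lines, and Myh6 was at 0 in at least 1 library. For the 9 mESC identity promoters they ran from 1296 to 1345 and 1259 to 1512, 1186 to 1347 and 1089 to 1202, 1482 to 1645 and 1481 to 1629, and 1320 to 1360 and 1200 to 1289 in the same order, lower after tamoxifen without overlap in Kdm2b-CXXC. limma called 0 promoters of either list in any line, of which 3, 2, 2 and 3 of the 5 and 9, 8, 9 and 9 of the 9 passed the filter. The part of such shifts in the members' values was not tested.

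The promoter most like each member was the one with the highest Pearson's r of log2(TMM-scaled reads + 1) over the 26 libraries after removal of each line's mean, among 17065 others. For Lhx1 it was Lhx1os (r = 0.88), whose interval overlaps that of Lhx1. For the other 9 members r lay between 0.677 (T, with Crygn) and 0.761 (Mixl1, with Prepl). The others were Zfp697 for Eomes, Slc36a4 for Tbx6, Pnkd for Gsc, Ehd3 for Evx1, Krt23 for Cdx1, Grk4 for Mesp1 and Faiml for Msgn1. Between members the highest r was 0.440, for T and Eomes. The largest of so many coefficients over 26 libraries that share their depth is high by selection, so these are descriptions only.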

How the data were processed

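Accessibility was measured in 26 ATAC-seq libraries from 4 lines, and 26 matched input DNA libraries were not analysed here. Per the study's methods, reads were aligned with Bowtie 2 to a joined mouse (mm10) and Drosophila (dm6) genome, filtered with SAMtools to remove duplicates, and counted over 400 bp promoter intervals (versions are not given in the sources used here). The values deposited by the authors are a calibrated read signal, the reads in each interval divided by a DESeq2 size factor taken from the Drosophila reads, in 1 table per line. Before this step the study adjusted the Drosophila reads by the ratio of Drosophila to mouse reads in the matched input DNA. The input libraries thus enter the calibrated values. The tables also hold the authors' own fold changes, test statistics and p-values, which were not used.

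Whole reads were recovered from 100% of values (within 1e-05 of a whole number), with size factors of 0.718 to 1.41. Of the promoter IDs, 99.1% matched a gene symbol. Promoters that passed edgeR's filterByExpr were compared by limma, one line at a time, as log2(calibrated reads + 1) with a mean-variance trend and Benjamini-Hochberg adjustment. A promoter was called at an adjusted p under 0.05 with a fold change over 1.4. Levels between lines used log2(TMM-scaled reads + 1). Fold changes on this scale understate the change of promoters with few reads. Alternatives were TMM scaling, a pseudocount of 5, no filter, edgeR and DESeq2 on the recovered reads, a replicate block, leaving out each library and, for levels, centring on chromosomes and untreated libraries only. Python 3.11.15, R 4.3.3, limma 3.58.1, edgeR 4.0.16 and DESeq2 1.42.0 were used. The fits were tested on simulated data in which the calibration was taken as exact, so that test does not cover the spread of the calibration.

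All 10 members were named, with the promoter of smallest unadjusted p from each pathway list in each line, the genes of both marker lists, and the promoter most like each member. The members and the lists were chosen with earlier results of these data known. Replicates are biological per the labels. The deviations of same-numbered libraries correlated at -0.012 to 0.078, in no line above 0.1 for every pair, so numbers were not taken as pairs. Counting error covers reads, not the copies made by PCR. Nodal and Krt14 are not analysed here, and 1 other marker promoter is not reported here.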

Additional observations from a re-analysis of the deposited data

Results flagged for a closer look

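In 20 groups of 4 libraries (10 members, untreated and tamoxifen, in Kdm2a/b-CXXC), 2 held a library far from the others, where the gap to the nearest library divided by the range passed 0.829. Chance passes this limit in about 1 of 20 groups. Evx1 had 35.6 calibrated reads in untreated replicate 3, against 43.8 to 45.4 in the other 3 libraries (0.838 of the range). Mesp1 had 49.8 in untreated replicate 2, against 26.7 to 29.1 in the others (0.897 of the range). Groups of 3 libraries were not examined in this way.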

How the results depend on the processing

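Over the alternatives run, 0 members were called for tamoxifen in any line, except that DESeq2 gave no adjusted p for the 10 members in Kdm2a/b-JmjC and so has no count there. Of 540 member values under an alternative, 490 kept their direction and 50 turned. With TMM scaling, with or without the replicate block, the log2 fold changes that turned were 0.11 (Eomes) and 0.070 (Mesp1) in the JmjC line, -0.081 (Evx1) in Kdm2a/b-CXXC, 0.085 (T), 0.035 (Gsc) and 0.096 (Cdx1) in the Kdm2a line, and -0.015 (Eomes), -0.045 (Gsc) and -0.0074 (Lhx1) in Kdm2b-CXXC. It moved the members' median to 0.010 in the JmjC line and -0.11 in Kdm2a-CXXC. TMM scaling removes a shift shared by all promoters.

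The promoters called in Kdm2a/b-JmjC (13) became 0 with TMM scaling, 71 with a pseudocount of 5 and 114 with edgeR, and those of Kdm2a/b-CXXC and Kdm2b-CXXC (0 each) became 17 and 1 with TMM scaling. The promoters differing in level between lines (7330) became 4617 in untreated libraries only, where Cdx1 had an adjusted p of 0.0788 by limma, T 0.0120 and Mixl1 0.0399, and 6005 after centring on chromosomes.

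With the replicate block, Kdm2a/b-JmjC had 62 calls, Kdm2a-CXXC 188, Kdm2b-CXXC 5 and Kdm2a/b-CXXC 0, and with the block and TMM scaling the counts were 0, 0, 1 and 23 in that order. The correlation of same-numbered libraries lay between 0.045 and 0.078 in the JmjC line, between -0.012 and 0.027 in Kdm2a/b-CXXC, between -0.0077 and 0.050 in the Kdm2a line and between -0.0041 and 0.0021 in the Kdm2b line, and 6 of 6, 4 of 8, 4 of 6 and 2 of 6 libraries correlated best with their own number, a hint of shared deviations in the JmjC line that comes from the data and not from the design. The cause of these differences was not tested.

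With 1 library left out, promoters called ranged from 0 (without untreated replicate 1) to 607 (without tamoxifen replicate 1) in the JmjC line, from 0 to 8 (without tamoxifen replicate 4) in Kdm2a/b-CXXC and from 0 to 43 (without tamoxifen replicate 3) in the Kdm2a line, and were 0 in Kdm2b-CXXC. The members' median ranged from -0.28 to -0.17, -0.24 to -0.022, -0.41 to -0.19 and -0.16 to 0.22 in that order of lines. Log2 fold changes that turned ranged from -0.23 to 0.092 (Eomes), -0.098 to 0.41 (Evx1), -0.44 to 0.0047 (Cdx1) and -0.28 to 0.029 (Mesp1) in the JmjC line. They ranged from -0.21 to 0.15 (Evx1), -0.080 to 0.060 (Lhx1) and -0.31 to 0.10 (Mesp1) in Kdm2a/b-CXXC, from -0.22 to 0.18 (T), -0.23 to 0.014 (Cdx1) and -0.17 to 0.56 (Msgn1) in the Kdm2a line, and from -0.49 to 0.15 (T), -0.16 to 0.33 (Eomes), -0.26 to 0.13 (Mixl1), -0.27 to 0.23 (Gsc), -0.31 to 0.11 (Evx1), -0.14 to 0.31 (Lhx1) and -0.51 to 0.17 (Mesp1) in Kdm2b-CXXC. Between 6665 and 7314 promoters, and 2 to 4 members, differed in level. Depth limits Msgn1 most, whose counting error was near its observed spread.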
